A study of Mus musculus with 27 samples.

Results

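The genes described here are the 10 members of the MYC, MAX and MXD transcription factor network that were listed by name: Myc, Mycn, Mycl, Max, Mxd1, Mxd3, Mxd4, Mxi1, Mnt and Mlx. All 10 were found among the 30735 genes of the expression table, and their transcripts were summed per gene. RNA was sequenced from 27 samples of mouse B cells purified by B220, a surface antigen of the B lineage. The non-malignant cells came from spleen and gave 4 untreated samples, called resting here, and 4 samples treated for 2 days with lipopolysaccharide (LPS, a bacterial component that drives B cells to divide), with 1 of each from the genotypes wt, hv, cr and co. The other 19 samples were B-cell lymphomas, 7 labelled hv, 7 cr, 4 co, and 1 (T39, from lung) titled hv but described as CO. They came from lung (12 samples), mesenteric lymph node (4, all cr) and peripheral lymph node (3). The labels call the hv, cr and co mice, non-malignant samples included, transgenic for c-myc at Igh, the immunoglobulin heavy chain locus, and give no such note for wt. They do not explain the names hv, cr and co, nor which c-myc sequence was inserted. The labels do not say whether samples came from separate mice, so p-values measure only the spread between these samples.

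MYC, MYCN and MYCL are related transcription factors that bind DNA only when paired with MAX, a small protein of the same basic helix-loop-helix-zipper family. The pairs recognise the E-box, whose preferred letters are CACGTG, and raise the transcription of genes of growth and metabolism. MXD1, MXD3, MXD4, MXI1 and MNT compete for MAX, bind the same letters and bring in the SIN3 corepressor, so they are called antagonists of MYC here. MLX is a parallel partner that pairs with some MXD proteins, with MNT and with the glucose-sensing factors encoded by Mlxip and Mlxipl. In B cells, Myc is known for its induction on activation and for its translocation to the heavy chain locus in lymphoma.

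Stretches of sequence are shown for the E-box in the promoters of the members themselves, since proteins of the network bind these letters, and for the transcripts whose shares are reported below. Of the 10 members, 9 had a promoter entry in RefSeq (GRCm38.p6; 250 bases before to 50 after the start, 11 promoters). The member without an entry was Myc, so its promoter was not searched. The letters CACGTG, which read the same on both strands, were found in 4 of these 9 genes, against 8.09% of all 27025 genes (7.15% of 32851 promoters of that length). Each is printed with 18 bases on either side, 5′ to 3′ on the gene's strand, with the E-box in capitals.
Max, chr12:76962228-76962269, minus strand: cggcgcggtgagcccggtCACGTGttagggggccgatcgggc
Mlx, chr11:101087232-101087273, plus strand: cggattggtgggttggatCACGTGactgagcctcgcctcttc
Mxd4, chr5:34187906-34187947, minus strand: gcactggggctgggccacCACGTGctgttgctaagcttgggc
Mnt, chr11:74830783-74830824, plus strand: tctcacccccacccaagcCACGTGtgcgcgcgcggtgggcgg
A match describes the letters only. The E-box variant CACGCG, searched on both strands, was found in the promoter of 1 member, Mycl, and in 10.5% of all genes (9.27% of promoters).

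Max and Myc have transcripts that differ in coding sequence. The longer Max transcript (ENSMUST00000110395) has an exon of 27 coding bases at chr12:76961263-76961289 (GRCm38, minus strand) that the shorter one (ENSMUST00000082136) lacks, and in the GENCODE M21 annotation this is the only difference between their coding parts, of 480 and 453 bases. The exon is in capitals, with 24 coding bases on either side.
Max longer transcript: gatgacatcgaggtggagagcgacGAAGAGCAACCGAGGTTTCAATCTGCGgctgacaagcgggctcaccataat
Max shorter transcript: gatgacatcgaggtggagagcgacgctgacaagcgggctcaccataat
For Myc, the joint of exons 1 and 2 is shown, since the transcripts named below differ there. The full-length transcript (ENSMUST00000022971) starts exon 2 at base 61987507 of chromosome 15. The coding-only transcript (ENSMUST00000191178) starts it at 61987510 and so lacks the 3 bases in capitals. ENSMUST00000167731 and ENSMUST00000159327 start exon 2 at the same base, so this joint is not particular to the coding-only transcript.
Myc full-length: ttggaaaccccgCAGacagccacgacg
Myc coding-only: ttggaaaccccgacagccacgacg

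Values are TPM, a relative abundance of transcripts corrected for their length. Steps in the low values gave a depth of 11531400 to 32032600 read pairs per sample. The 10 B-cell markers summed to 2954 to 5565 TPM in resting, 1127 to 2292 in LPS and 1448 to 4183 in lymphoma samples, and none was at 0 throughout a group. The resting samples also held RNA of other cells. The 9 erythroid markers summed to 11747 to 112471 TPM there, against 175 to 2218 in LPS and 16.4 to 1132 in lymphoma samples, and the 12 macrophage markers to 163 to 924, 5.68 to 54.6 and 11.9 to 313 TPM. All markers of both lists were above 0 in at least 1 sample of each group, other than Vsig4, at 0 in all LPS samples. The wt resting sample had the lowest sum of both lists among the resting samples. The predicted gene Gm10800 held over 1% of TPM in 4 libraries (3.65% in wt resting, 18.6% in cr LPS, 2.70% in hv LPS and 3.08% in the lymphoma cr T6). Without these libraries, the cr, co and hv resting and the wt and co LPS samples remain. The gene Gm20594 held 10.9% (cr LPS) to 34.3% (cr T35) of TPM. The dominant genes left out in a rescaling below held 14.9% (wt LPS) to 42.1% (cr T35). TPM are relative, so these shares affect the TPM of every other gene.

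Myc was the most abundant member in each of the 3 groups by mean TPM. It was at 126 ± 41.1 TPM (SD, n = 4) in resting, 115 ± 43.5 (n = 4) in LPS and 190 ± 84.1 (n = 19) in lymphoma samples. Max, the shared partner, was at 42.6 ± 4.39 TPM (SD, n = 4) in resting, 46.1 ± 5.85 (n = 4) in LPS and 43.8 ± 9.23 (n = 19) in lymphoma samples. Mxd4 stood beside Max in resting cells, at 42.6 ± 8.41 TPM, followed by Mlx at 29.2 ± 5.27, Mxd1 at 24.8 ± 15.7, Mnt at 11.5 ± 2.09, Mxd3 at 8.76 ± 6.41, Mxi1 at 6.26 ± 3.35 and Mycl at 3.93 ± 4.09. Neighbours in this order from Mxd1 down to Mycl lay within a spread of each other. After LPS the order below Max was Mlx (34.96 ± 8.39 TPM), Mxd4 (8.44 ± 1.98), Mxd3 (4.78 ± 2.57), Mxi1 (3.84 ± 0.822), Mnt (2.79 ± 0.735), Mxd1 (2.03 ± 0.656) and Mycl (0.233 ± 0.0565). In the lymphomas Mxd4, at 54.6 ± 34.96 TPM, was followed by Max, Mlx (25.4 ± 8.60), Mxd3 (9.90 ± 8.54), Mxi1 (8.28 ± 3.68), Mnt (6.90 ± 2.17), Mxd1 (4.73 ± 1.68) and Mycl (0.143 ± 0.169). The order of Mxd4 and Max there lay within the spread of Mxd4 and turned by medians, 39.7 against 42.5 TPM. Mycn was near 0 in all 3.

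**Figure D1:**
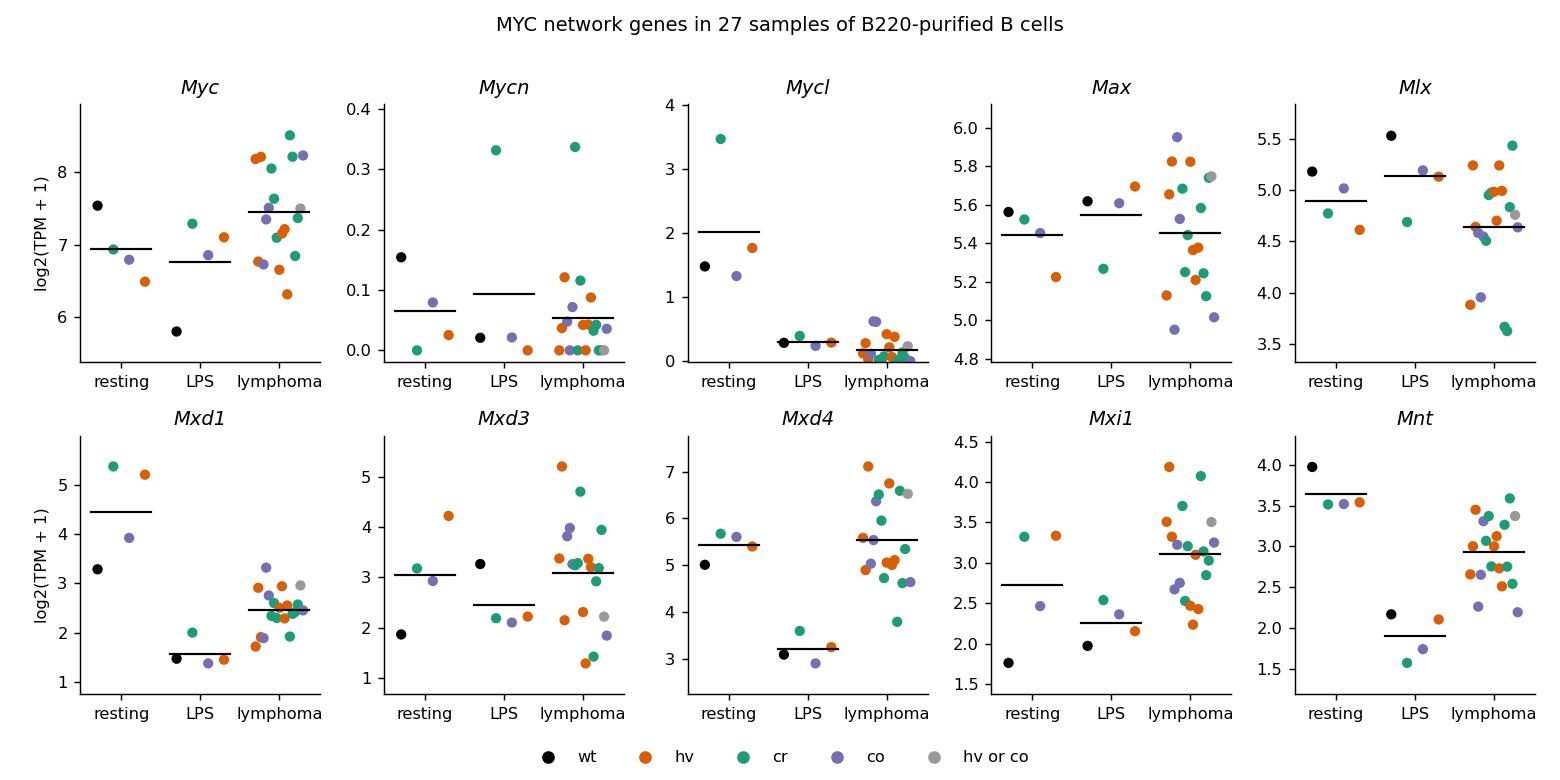
Expression of the 10 network genes in each of the 27 samples, as log2(TPM + 1) on the vertical axes (each panel has its own range), by group. Points are samples coloured by genotype or line, and bars are group means; Mxd4 and Mnt of the LPS samples lie below all resting and all lymphoma samples, and Max overlaps between all 3 groups.

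Shares of some single Myc transcripts differed between lymphomas and the resting or LPS samples, while none of the 6 tested passed between LPS and resting samples. A pair of 3-exon transcripts with the same 2338 bases (ENSMUST00000022971 and ENSMUST00000161976) had identical values in every sample and was summed. This full-length pair held 44.1, 62.5, 70.1 and 64.6% of Myc TPM in the wt, cr, co and hv resting samples, and 49.2, 67.2, 61.3 and 70.6% in the LPS samples of the same genotypes. In the 19 lymphomas it held 67.9 to 94.2%, with a median of 84.8%. The mean share was higher in lymphomas, at 82.8 ± 7.08%, than in resting (60.3 ± 11.3%) and LPS samples (62.1 ± 9.41%), by exact two-sided permutation tests (adjusted p = 0.00163 for each, over 18 tests of 6 transcripts in 3 comparisons). The ranges overlapped in both comparisons.

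The coding-only transcript ENSMUST00000191178 starts and ends with the annotated coding sequence (1362 bases including the stop codon, 61985922 to 61989908 of chromosome 15), and so has no untranslated part. It was at 0 TPM in the wt, co and hv resting samples, at 7.55e-09 TPM in cr resting, and at 0 in wt LPS. It was at 46.5 TPM in cr LPS, 18.4 in co LPS and 24.7 in hv LPS. Among the lymphomas it was at 0 in cr T6 and at 3.24 to 50.5 TPM in the other 18, and so it was above 3 TPM in LPS-treated cells and lymphomas of the transgenic lines other than cr T6, and in no wt sample. The other transcripts can share its reads, since kallisto divides reads that fit several of them. The labels do not give the inserted c-myc sequence, and whether reads of the transgene are counted under this transcript was not tested. Its share of Myc TPM was 10.02 ± 5.37% (n = 19) in the lymphomas, which differed from the resting samples (exact permutation test, adjusted p = 0.00339). The share in LPS samples, 16.02 ± 12.3% (n = 4), did not pass against resting samples (exact permutation test, adjusted p = 0.200) with the wt sample among them. The smallest p that 4 against 4 samples can give is 0.0286 before adjustment.

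A further 3 transcripts, of which 2 start inside intron 1, held a smaller share in lymphomas. ENSMUST00000160009, which begins at base 61987422, between exons 1 and 2 of the full-length transcript, was at 43.0, 18.2, 14.6 and 12.6 TPM in wt, cr, co and hv resting samples and at 6.44, 0.589, 9.31 and 2.00 TPM in the matching LPS samples. In the lymphomas it ranged from 0 to 19.0 TPM. Its share was 16.4 ± 4.63% in resting and 2.16 ± 3.63% in lymphoma samples, without overlap. The short ENSMUST00000159338 (61987034 to 61987617) held 9.04 ± 1.39% in resting and 0.536 ± 0.903% in lymphoma samples, and ENSMUST00000167731 held 12.2 ± 5.09 and 1.16 ± 1.98%, also without overlap. For ENSMUST00000167731 the groups nearly met, at 7.644% in co resting and 7.636% in the lymphoma co T30. Each of these 3 shares was lower in lymphomas than in resting samples (exact permutation tests, adjusted p = 0.00136 for each). ENSMUST00000167731 starts exon 2 at the same base as the coding-only transcript, whose share was higher in lymphomas than in resting samples. Whether reads were divided differently between these 2 transcripts was not tested. Against LPS samples, ENSMUST00000167731 was lower in lymphomas (11.8 ± 11.1% after LPS, exact permutation test, adjusted p = 0.00639), and this call was lost when the wt, co or hv LPS sample was left out (adjusted p = 0.0571, 0.0857 and 0.0545). The shares of ENSMUST00000160009 and ENSMUST00000159338 were lower in all LPS than in all resting samples, with an adjusted p of 0.0571 in exact permutation tests.

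**Figure D2:**
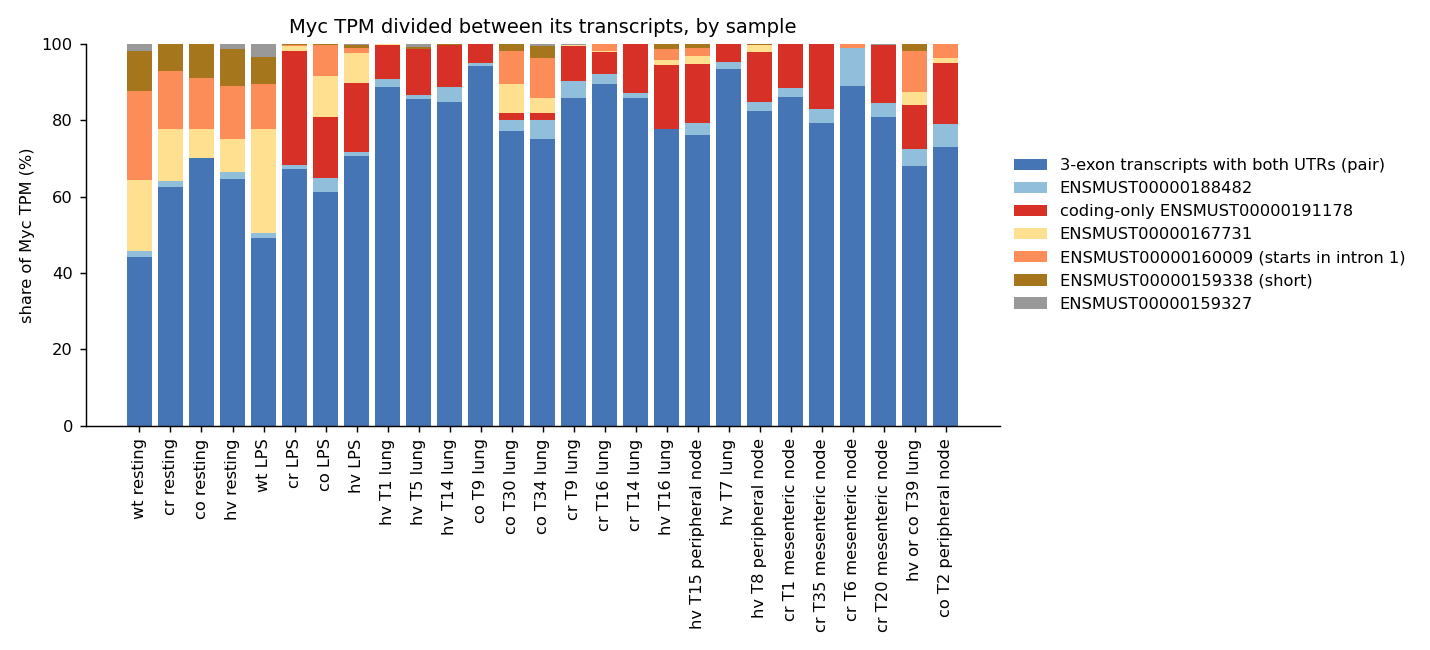
Share of Myc TPM (%) held by each Myc transcript in each sample. The coding-only transcript (red) is absent from the 4 resting bars and the wt LPS bar, is present in the cr, co and hv LPS bars and in 18 of 19 lymphoma bars, and the transcripts drawn in yellow, orange and brown are larger in resting and wt LPS bars than in most lymphoma bars.

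Of the other MYC-family genes, Mycn, which is known from immature B cells and neural tumours, was at or under 8 read pairs in every sample, and 22 of 27 samples had fewer than 3. It was not tested. Mycl was at 1.78, 10.03, 1.51 and 2.40 TPM in wt, cr, co and hv resting samples. After LPS it was at 0.219, 0.313, 0.180 and 0.221 TPM (9 to 20 read pairs), below every resting sample, and it ranged from 0 to 0.537 TPM in the lymphomas, 11 of which had fewer than 3 read pairs. A gene was tested where it reached 1 TPM in 4 or more samples, and Mycl did so in the 4 resting samples alone, so a lower level was the only call it could give. Its log2 fold changes against resting samples, -1.71 ± 0.41 after LPS and -1.83 ± 0.23 in lymphomas, are therefore given as a description, and Mycl is left out of the counts of members below. Without a filter, limma gave adjusted p of 0.0138 and 2.3e-06. All fold changes, given with standard errors, compare log2(TPM + 1), so those of weakly expressed genes come out too small. With the filter and a pseudocount of 5, the adjusted p after LPS was 0.0518. The resting cr sample, the highest for Mycl, had an erythroid marker sum of 110747 TPM, next to 112471 in hv, 56668 in co and 11747 in wt. The part of these other cells in the difference was not tested. In these bulk samples, fewer cells of a type and less RNA per cell cannot be told apart.

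Myc itself was not called in any of the 3 comparisons. Its log2 fold changes were -0.18 ± 0.33 after LPS, 0.51 ± 0.32 in lymphomas against resting cells and 0.68 ± 0.34 against LPS. The limma adjusted p were 0.671, 0.231 and 0.183. Max did not pass the test in any of the 3 comparisons, with log2 fold changes of 0.11 ± 0.17 after LPS, 0.01 ± 0.17 in lymphomas against resting cells and -0.09 ± 0.17 in lymphomas against LPS, and limma adjusted p of 0.613, 0.956 and 0.756. The sign of the first 2 fold changes of Max turned when TPM were rescaled without a few dominant genes (-0.043 and -0.11). Its transcripts with and without the 27-base exon divided the level differently. The longer one held 56.6, 45.1, 42.9 and 58.4% of Max TPM in wt, cr, co and hv resting samples, and 32.1, 33.9, 30.6 and 28.7% in the matching LPS samples. In lymphomas its share ranged from 20.2% (hv T14) to 46.5% (co T2), with a median of 29.7%. The LPS samples thus lay below all resting samples, while the lymphomas overlapped both groups. This share was chosen after its values were seen and is given with no test.

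**Figure D3:**
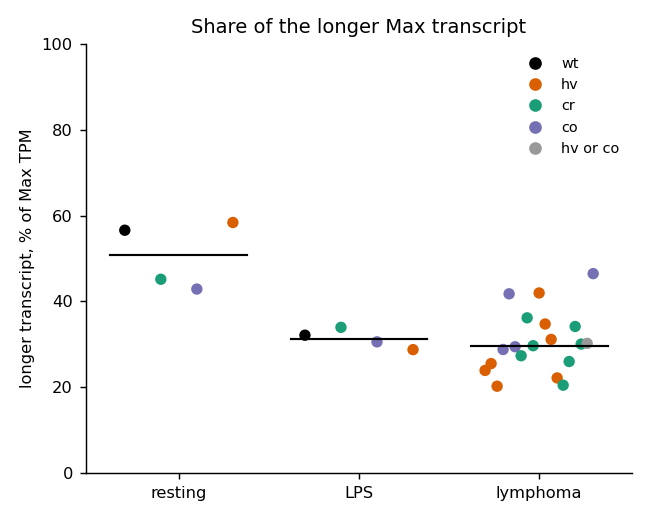
Share of Max TPM (%) held by the longer transcript, which has the added 27-base exon, in each sample by group, with group medians as bars. Resting samples lie at 42.9 to 58.4%, LPS samples at 28.7 to 33.9% and lymphomas at 20.2 to 46.5%.

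Mlx was at 23.5 to 35.3 TPM in resting, 24.8 to 45.3 in LPS and 11.3 to 42.3 in lymphoma samples, and did not pass in any of the 3 comparisons (limma adjusted p = 0.339, 0.476 and 0.231). It was higher after LPS, by 0.38, with median-of-ratios scaling (limma adjusted p = 0.0272). Without the libraries rich in Gm10800 it was higher by 0.56 (limma adjusted p = 0.0421). That fit held only wt and co LPS against cr, co and hv resting samples. It kept wt LPS, the highest LPS sample at 45.3 TPM, without wt resting (35.3 TPM). Genotype and treatment are therefore mixed in it, and its p-value is not relied on.

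After LPS, 3 of the 8 members expressed in both groups fell and none rose: Mxd1, Mxd4 and Mnt. Among all 11999 genes tested, 58.2% were called, 33.0% lower and 25.2% higher, so a call of either sign was the common outcome in this comparison. The median log2 fold change over all genes was -0.16. Mxd4, an antagonist known from quiescent and differentiated cells, was at 31.3, 50.04, 47.7 and 41.3 TPM in wt, cr, co and hv resting samples and at 7.56, 11.1, 6.51 and 8.56 TPM in the LPS samples. Its levels did not overlap, and it fell by 2.21 ± 0.20 on the log2 scale (limma adjusted p = 4.2e-06). Mnt, the broadly expressed antagonist, was at 14.7, 10.4, 10.5 and 10.6 TPM and, after LPS, at 3.51, 1.99, 2.35 and 3.31 TPM, also without overlap, and fell by 1.73 ± 0.20 (limma adjusted p = 2.0e-05). Mxd1, linked to the end of cell division in maturing blood cells, was at 8.76, 40.4, 14.2 and 35.9 TPM in resting samples. It was at 1.78, 3.01, 1.60 and 1.74 TPM after LPS, and fell by 2.87 ± 0.45 (limma adjusted p = 6.1e-04). The resting samples highest for Mxd1, cr and hv, also had the highest macrophage marker sums (924 and 781 TPM, against 302 in co and 163 in wt). In wt alone, Mxd1 was 1.81 lower after LPS on this scale. What part the other cells have in this difference was not tested.

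These 3 genes stood without overlap below the resting samples, as did 29.5% of all genes tested. They were called under every alternative fit of this comparison. Mxd3, an antagonist known from dividing cells, was at 2.63, 8.06, 6.62 and 17.7 TPM in wt, cr, co and hv resting and at 8.63, 3.55, 3.28 and 3.66 TPM in LPS samples (log2 fold change -0.61 ± 0.48, limma adjusted p = 0.309). Mxi1, whose protein is also called MXD2, was at 2.39, 9.01, 4.52 and 9.10 TPM and, after LPS, at 2.93, 4.81, 4.15 and 3.45 TPM (-0.46 ± 0.33, limma adjusted p = 0.250). In both genes the wt samples differed in sign from the others. Among resting samples wt was the lowest for both genes, and it also had the lowest erythroid and macrophage marker sums (11747 and 163 TPM). Genotype and RNA of other cells cannot be told apart in this contrast. In the cr, co and hv samples alone, Mxd3 was lower after LPS by 1.28 and Mxi1 by 0.69. Limma called both there, but from so few samples it also gave Mxd1 an adjusted p of 9.8e-38. The p-values of that fit are therefore not relied on.

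**Figure D4:**
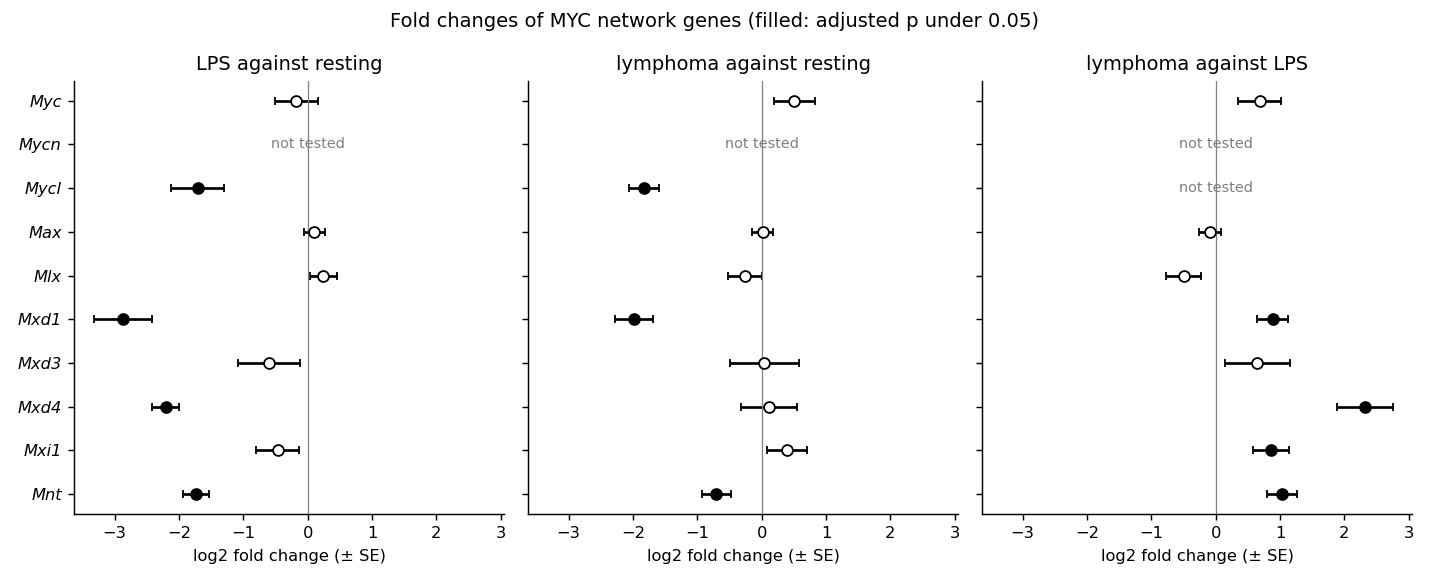
Log2 fold changes of the network genes on the log2(TPM + 1) scale with standard errors, in 3 comparisons that share samples. Filled points passed an adjusted p of 0.05; Mxd4 and Mnt are below 0 after LPS and above 0 in lymphomas against LPS. Mycl, filled in both comparisons with resting samples, was tested only through its level in resting cells.

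Against resting cells, 2 of 8 members, Mxd1 and Mnt, were lower in the lymphomas and none was higher. Over all 13239 genes tested, 31.9% were called, 17.4% lower and 14.5% higher. Mxd1 ranged from 2.30 to 8.99 TPM in the lymphomas, with a median of 4.48, and reached the wt resting sample (8.76 TPM) in co T30 alone. It fell by 1.99 ± 0.30 (limma adjusted p = 1.7e-05). Mnt ranged from 3.59 to 11.02 TPM, with a median of 7.01, and overlapped with resting cells (-0.71 ± 0.22, limma adjusted p = 0.0178). This call was lost without the wt resting sample (-0.60, adjusted p = 0.0997) and without the libraries rich in Gm10800 (-0.63, adjusted p = 0.0709). Mxd4 ranged from 12.9 to 137 TPM in the lymphomas, with a median of 39.7, around the resting levels (0.11 ± 0.44, limma adjusted p = 0.865). Mxi1 (3.71 to 17.2 TPM, median 7.82) and Mxd3 (1.43 to 36.2 TPM, median 8.47) did not pass either, with limma adjusted p of 0.346 and 0.958. Without the libraries rich in Gm10800, 1 member, Mxd1, was called, and 2746 genes in place of 4229.

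Against LPS-treated cells, 4 of 8 tested members were higher in the lymphomas and none was lower: Mxd4, Mnt, Mxd1 and Mxi1, all antagonists. Over all 12880 genes tested, 13.8% were called, 5.27% higher and 8.56% lower. The median log2 fold change was 0.77 over the 8 members and 0.03 over all genes. Mxd4 and Mnt had every lymphoma above every LPS sample, as had 1.29% of all genes, with differences of 2.32 ± 0.44 (limma adjusted p = 7.1e-04) and 1.03 ± 0.23 (limma adjusted p = 0.00357). Mxd1 was higher by 0.88 ± 0.24 (limma adjusted p = 0.0149) and Mxi1 by 0.86 ± 0.28 (limma adjusted p = 0.0421). Mxd4 was called under every alternative, but without the libraries rich in Gm10800 it was the only member called, among 433 genes in place of 1782. That setting kept only the wt and co LPS samples, so Gm10800 and the smaller LPS group cannot be told apart in it. Leaving out co or hv LPS alone gave 835 and 821 genes. There Mnt, Mxd1 and Mxi1 had differences of 0.93, 1.04 and 0.96 with limma adjusted p of 0.107, 0.0998 and 0.219. The Mxd1 call was also lost without the wt, co or hv LPS sample (limma adjusted p = 0.0561, 0.0794 and 0.0698), and with the lymphomas of joined names only (0.0657). That of Mxi1 was lost without any 1 of the 4 LPS samples (limma adjusted p = 0.0571 to 0.144), with the lymphomas of separated names (0.115) or nodes (0.164) only, without a filter (0.0576) and with a pseudocount of 5 (0.0610). That of Mnt was lost with node lymphomas only (limma adjusted p = 0.0611). Since the LPS samples enter both this comparison and that with resting cells, the low levels after LPS are shared by the 2 sets of values.

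Summed, the 5 antagonists Mxd1, Mxd3, Mxd4, Mxi1 and Mnt were at 59.7 to 118 TPM in resting, 17.9 to 24.5 in LPS and 41.8 to 162 in lymphoma samples. The LPS samples were below all others. Mxd4 was the highest antagonist in all 4 resting samples, in 3 of 4 LPS samples (Mxd3 in wt) and in 17 of 19 lymphomas, the exceptions being hv T5 (Mxd3) and cr T1 (Mxi1). Myc TPM per summed antagonist TPM had a median of 1.17 in resting samples (0.777 in hv to 3.09 in wt). The medians were 6.38 after LPS (2.25 in wt to 6.58 in hv) and 1.98 in lymphomas (1.12 to 8.65). The ratio of wt was thus lower after LPS than before, and those of cr, co and hv were higher. The wt resting sample had the lowest antagonist sum of its group and also the lowest erythroid and macrophage marker sums. What part other cells have in these ratios was not tested. Myc per Max had medians of 2.63, 2.54 and 3.51. These ratios of RNA describe the samples and were not tested.

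**Figure D5:**
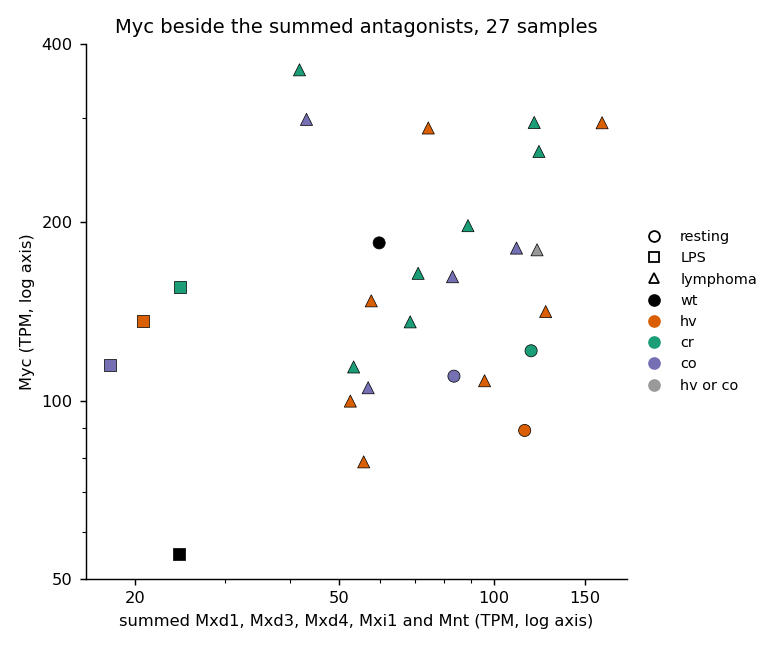
Myc TPM (vertical, log axis) against the summed TPM of Mxd1, Mxd3, Mxd4, Mxi1 and Mnt (horizontal, log axis) in 27 samples, with symbols for the group and colours for genotype or line. The 4 LPS samples stand at 17.9 to 24.5 TPM of antagonists, left of all resting and lymphoma samples.

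Other transcripts of the antagonists also differed in share, described with no test. The Mnt transcript ENSMUST00000133217, which GENCODE annotates without a coding sequence, was at 2.29 to 3.86 TPM in resting samples, 0 to 0.476 after LPS and 0.386 to 3.05 in lymphomas, so that part of the Mnt level of resting cells (15.6 to 36.4%) came from it. The main transcript ENSMUST00000000291 alone was at 6.76 to 12.4, 1.99 to 3.31 and 3.09 to 9.37 TPM. For Mxd3, the non-coding ENSMUST00000146181 held 21.1 to 36.2% in resting, 7.32 to 26.1% in LPS and 0 to 23.4% in lymphoma samples. Mxi1 came mainly from ENSMUST00000003870 and ENSMUST00000025998, which start at different first exons. The latter held 31.1 to 50.2% in resting, 37.2 to 49.7% in LPS and 32.4 to 76.8% in lymphoma samples.

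Between lines and sites, none of the 8 tested members passed. No gene of 12480 was called between hv and cr lymphomas (limma, 1140 at an unadjusted p under 0.05) or between co and the mean of the others (limma, 574 unadjusted). The genes Srp19 and Rpl30-ps10 were called between node and lung, 0.0160% of those tested, and they are named here after their values were seen. The member with the smallest unadjusted p was Mxd3, at 1.43 to 14.5 TPM in 7 node lymphomas and 3.42 to 36.2 TPM in the 11 lung lymphomas fitted, without T39 (-1.13 ± 0.46, limma adjusted p = 0.798). Myc had a median of 141 TPM in hv, 197 in cr and 171 in co lymphomas, and hv against cr differed by -0.45 ± 0.35 (limma adjusted p = 0.660). Line and site were terms of the same model, in which the cr line had 3 lung and 4 mesenteric node lymphomas.

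Among the 19 lymphomas, Mlx had the strongest correlation with Myc of the other 9 members by Pearson's r, with a negative sign. The 5 lymphomas with the most Myc, at 289 to 362 TPM (cr T1, co T2, cr T35, hv T14 and hv T1) had Mlx at 11.7, 23.9, 11.3, 23.98 and 13.7 TPM, against a median of 25.1 over all 19. On the log scale Pearson's r was -0.63 (permutation p = 0.00387) and Spearman's rho -0.63 (permutation p = 0.00478), and r was -0.55 without the 2 lymphomas farthest from the median of Myc (cr T1 and hv T8). Over all 12653 genes tested for a slope on Myc, the adjusted p of Mlx was 0.127, so it failed the correction. Only 0.0237% of genes, the 3 genes Syndig1l (rising with Myc), Taldo1 and 2210016F16Rik (both falling), passed, and they are named here after their values were seen. In the labels 9 lymphomas, all from lung, have names written as 1 word and 10 have names with separators, here joined and separated, and r for Mlx was -0.47 and -0.71 within them. Mxi1 had an r of 0.50 (permutation p = 0.0296, rho 0.53 with permutation p = 0.0197, limma adjusted p = 0.281). Its r was 0.30 without the farthest 2, 0.07 in joined and 0.79 in separated names. Mycl had an r of -0.48 (permutation p = 0.0363) and a rho of -0.67 (permutation p = 0.00221), at levels where 11 of 19 samples had fewer than 3 read pairs. For Mxd4, r was 0.24 (permutation p = 0.310), with 0.79 in joined and -0.09 in separated names. The r of Max was 0.01 (permutation p = 0.970) and that of Mnt 0.13 (permutation p = 0.594), while Mxd1 had -0.37 (permutation p = 0.123), Mxd3 -0.43 (permutation p = 0.0694) and Mycn 0.17 (permutation p = 0.539). These are 9 relations.

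Genes around the network were counted from lists, with the share of all genes called given above for each comparison. Of the MYC-activated targets, all 29 tested rose after LPS, against 25.2% of all genes, with a median log2 fold change of 1.67. In lymphomas 27 of 30 (90%) were higher than in resting cells, against 14.5% of all genes, with a median of 1.13. Against LPS samples, 14 of 30 (46.7%) were lower in lymphomas, against 8.56% of all genes, and none was higher. Ldha, the lactate dehydrogenase subunit of glycolysis, was at 154 ± 23.8 TPM in resting, 1571 ± 247 in LPS and 586 ± 195 in lymphoma samples. It was higher after LPS (3.34 ± 0.19, limma adjusted p = 1.9e-07) and lower in lymphomas than after LPS (-1.49 ± 0.25, limma adjusted p = 2.3e-04). Srm, which makes spermidine, was at 26.98 ± 8.84, 200.4 ± 42.1 and 86.4 ± 27.2 TPM. Hspd1, a mitochondrial chaperone, was at 98.6 ± 14.8, 717 ± 211 and 275 ± 98.0 TPM. In all 3 the LPS samples were the highest group by mean. Without the libraries rich in Gm10800, 28 of 29, 22 of 30 and 7 of 30 targets were called in the same directions.

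The list of MYC- and MIZ1-repressed genes was mixed after LPS, with 3 of 10 tested genes (30%) higher and 4 (40%) lower. These shares were near the 25.2% and 33.0% of all genes. Gadd45a, a stress gene, fell from 54.0 ± 22.4 to 7.48 ± 0.834 TPM (-2.61 ± 0.26, limma adjusted p = 9.4e-06), and the cell-cycle inhibitor Cdkn1b fell from 47.7 ± 9.02 to 19.8 ± 5.51 TPM (-1.24 ± 0.22, limma adjusted p = 3.6e-04). The inhibitor Cdkn2b, counted among the 3 higher genes, was at 0.554 ± 0.456 TPM in resting and 3.26 ± 1.89 in LPS samples (1.39 ± 0.31). It reached 1 TPM in all samples of the LPS group only and was tested through that group. Its difference is therefore given as a description. In lymphomas, 2 of 11 (18.2%) were lower than in resting cells, near the 17.4% of all genes. None differed from LPS samples at this threshold.

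Of 23 coactivators of MYC, 6 (26.1%) rose and 8 (34.8%) fell after LPS, near the 25.2% and 33.0% of all genes. The ATPase genes Ruvbl1 and Ruvbl2 rose by 2.01 ± 0.19 and 2.39 ± 0.19, while Ep400, which encodes a chromatin remodeller of the same complex, fell from 80.4 ± 10.4 to 28.3 ± 4.84 TPM (-1.48 ± 0.18, limma adjusted p = 2.7e-05). In lymphomas Ep400 was at 91.5 ± 41.6 TPM, above every LPS sample (1.53 ± 0.33, limma adjusted p = 0.00273). Without the libraries rich in Gm10800, with wt and co as the only LPS samples left, none of the 23 was called between lymphomas and LPS samples. Of 19 SIN3 corepressor genes, through which the antagonists act, 7 (36.8%) rose and 3 (15.8%) fell after LPS, against 25.2% and 33.0% of all genes. Rbbp7, a histone-binding subunit, rose by 1.71 ± 0.19, and Arid4b fell by 1.46 ± 0.23 and was also lower in lymphomas than in resting cells (-1.28 ± 0.29, limma adjusted p = 0.00153). In lymphomas 3 of the 19 (15.8%) were higher and 2 (10.5%) lower than in resting cells, against 14.5% and 17.4% of all genes. Only 1 (5.26%), Rbbp7, was lower than after LPS, against 8.56% of all genes.

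Of 21 genes of MYC protein turnover, 10 (47.6%) rose and 2 (9.52%) fell after LPS, against 25.2% and 33.0% of all genes. In lymphomas 5 (23.8%) were lower than in LPS samples, against 8.56% of all genes, with none higher. Pim2, a kinase that stabilises MYC, was at 10.1 ± 1.23 TPM in resting, 65.1 ± 15.4 in LPS and 11.6 ± 12.6 in lymphoma samples (lymphoma against LPS -2.87 ± 0.57, limma adjusted p = 0.00127). Set, an inhibitor of the phosphatase that acts on MYC, was at 207 ± 28.2, 970 ± 239 and 469 ± 109 TPM, and Plk1, a mitotic kinase, at 6.96 ± 4.02, 48.1 ± 4.83 and 17.2 ± 6.21 TPM. For the partners of MLX, Mlxip fell after LPS from 27.5 ± 7.23 to 9.35 ± 2.05 TPM (-1.45 ± 0.21, limma adjusted p = 1.1e-04), and Mlxipl was not tested. Mga, which encodes a large MAX partner, fell from 64.2 ± 11.3 to 43.6 ± 6.48 TPM (-0.54 ± 0.19, limma adjusted p = 0.0261). Neither was called in lymphomas against resting or LPS samples. Of 8 tested targets of the MLX partners, 4 (50%) rose and 3 (37.5%) fell after LPS, against 25.2% and 33.0% of all genes. Fasn, for fatty acid synthesis, rose by 1.36 ± 0.21, and Txnip, which limits glucose uptake, fell by 1.59 ± 0.24. In lymphomas against resting cells 1 of the 8 was higher (Fasn) and 1 lower (Txnip). These are 12.5% each, against 14.5% and 17.4% of all genes. Of other E-box factors, Tfap4 rose after LPS (0.93 ± 0.27, limma adjusted p = 0.0112) and was higher in lymphomas than in resting cells (1.18 ± 0.26, limma adjusted p = 0.00104). In that list 1 of 7 genes rose and 1 (Tfeb) fell after LPS, 14.3% each, against 25.2% and 33.0% of all genes. In lymphomas 2 of 8 (25%) were higher than in resting cells, against 14.5% of all genes. Against LPS samples 1 of 7 (14.3%), Usf1, was higher in lymphomas, against 5.27% of all genes.

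The genes whose levels followed Myc most closely over the 27 samples, by Pearson's r on log2(TPM + 1) among 8622 genes with a mean of 5 TPM or more, were Mcoln2 (0.75), Sbsn (0.75), Atxn7l2 (0.71), Hacd1 (0.70) and Uxs1 (0.69). The same measure placed Rab10 (0.80) first for Max, Cdkn2c (0.84) for Mxd3, S1pr4 (0.87) for Mxd4, Npc2 (0.78) for Mxi1, Fbxo33 (0.90) for Mnt and Ogfod1 (0.83) for Mlx. For Mycl the list held Apol7c (0.93), Rsad2 (0.92) and Nfe2 (0.92), and for Mxd1 Bsdc1 (0.91) and Sptb (0.90). Within the 19 lymphomas, where Mycl was near 0, its r with these genes was -0.02, 0.62 and 0.58. That of Mxd1 with Bsdc1 and Sptb was 0.63 and 0.56 there. The values over 27 samples therefore include the differences between groups. Nfe2 and Sptb, both known from red cell precursors, were at 54.0 and 35.7 TPM on average in resting samples and at 0.516 and 0.238 TPM in LPS samples. These values share the libraries and are a description. Within 2 Mb of Myc, Fam84b and Fam49b had a mean of 1 TPM or more, and neither was called in the 3 comparisons (Fam84b in lymphomas against resting cells: -1.09 ± 0.44, limma adjusted p = 0.0599).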

How the data were processed

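Total RNA depleted of ribosomal RNA was made into stranded, paired-end libraries, per the labels' protocols. The deposited file held TPM per transcript, made with FastQC and kallisto 0.43 on mm10 (GRCm38), per the submitters' processing notes. Neither annotation nor strand setting is named there, and reads of genes that overlap may be mixed. TPM of 88198 transcripts were summed to 30735 genes. TPM keeps no depth, and depth was read from the steps of TPM times effective length (60.7 to 75.6% of values of 1 to 20 reads whole within 0.02), so no count test was run. Floors of 3 read pairs cover counting error only.

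Each fit took the genes that reached 1 TPM in 4 or more of its samples and compared log2(TPM + 1) by limma 3.58.1 (trend, robust) (R 4.3.3; package data.table, version 1.17.8), with Benjamini-Hochberg adjustment over all genes tested and a threshold of 0.05. One model held line and site, over 18 lymphomas (T39 left out). Myc transcripts with a mean of 1 TPM or more were set against each other with exact permutation tests (two-sided), and relations to Myc by permutation (100000 resamples). The fits were tested on simulated data. Named genes were all members, the called genes of each list with the 4 largest changes, Mga, Mlxip and Mlxipl, the 5 genes most like Myc, and neighbours within 2 Mb. The members and lists were chosen with earlier results of these data known. Sequences were read from RefSeq promoters and GENCODE M21 transcripts. The Max models of GENCODE and of the deposited file differ at their ends. Alternatives changed the pseudocount, filter, scaling, fit and samples. Other software was scipy 1.17.1, numpy 2.4.6, pandas 2.3.3, matplotlib 3.10.9 and Python 3.11.15.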

Additional observations from a re-analysis of the deposited data

Results flagged for a closer look

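Of 50 groups of 4 to 10 samples tested for a sample standing far from the others, 8 had one. The rule was set to mark about 1 in 20 groups by chance, a nominal rate that was not measured here. Among resting samples, cr was highest for Mycl at 10.03 TPM (next 2.40), and wt for Mnt at 14.7 TPM (next 10.6). Among LPS samples, cr was highest for Mycn at 0.258 TPM (next 0.0149) and for Mxd1 at 3.01 TPM (next 1.78), and wt for Mxd3 at 8.63 TPM (next 3.66). Among lymphomas, hv T5 was highest of the hv line for Mxd3 at 36.2 TPM (next 9.40), cr T9 highest of the cr line for Mycn at 0.263 TPM (next 0.0834), and co T30 lowest of the co line for Mlx at 14.5 TPM (next 22.4).

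In 3 genes the wt pair of samples moved one way from resting to LPS and the pairs of all transgenic lines the other way, on the log2(TPM + 1) scale. Myc differed by -1.73 in wt and by 0.35 in cr, 0.06 in co and 0.61 in hv. Mxd3 differed by 1.41 in wt and by -0.99, -0.83 and -2.01 in the same lines. Mxi1 differed by 0.21 in wt and by -0.78, -0.10 and -1.18. With 1 wt sample in each group these differences were not tested. The wt resting sample also had the lowest erythroid and macrophage marker sums of the resting samples, so genotype and RNA of other cells cannot be told apart.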

How the results depend on the processing

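Counts of genes called depended on single libraries. Between lymphomas and resting samples, 4229 genes were called, 2746 without the libraries rich in Gm10800, 2749 without the wt samples, and 2749 to 3222 with each resting sample left out. Between lymphomas and LPS samples the count was 1782, and 433, 1103 and 821 to 1392 in the same order (835 without co and 821 without hv LPS), and 1001 with node lymphomas only. The fit with 433 genes kept only the wt and co LPS samples. LPS against resting gave 6981 calls, 5874 to 7070 with a sample left out, and 7250 with genotype as a replicate block. The genotypes were not taken to pair the samples, since the correlation of deviations was 0.222 in cr and 0.34 in co but 0.058 in wt and 0.063 in hv, under the 0.1 required of every pair. The share of calls that were higher was 43.3% after LPS (50.2% with median-of-ratios scaling, 36.7% rescaled without dominant genes), and 45.4% in lymphomas against resting (51.9 and 34.8%). The line and site counts were 1 for hv against cr without a filter; for co, 1 with a pseudocount of 5, 2 with median-of-ratios scaling, 1 without a covariate and 0 to 8 with a co lymphoma left out (8 without T9); and for node against lung, 0 without a filter or rescaled and 1 with median-of-ratios scaling, without trend and robust, or with T39 as hv. The relation to Myc gave 3 genes, 14 with a pseudocount of 0.1, 330 with median-of-ratios scaling, and 0 without the 2 farthest lymphomas or within either style of name.

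Log2 differences that changed sign were all of genes that were not called. After LPS, Max was at -0.043 rescaled, and Myc at 0.34 without wt samples, 0.023 without wt resting and 0.14 without wt LPS (-0.35 to 0.14 with a sample left out). In lymphomas against resting, Max was at -0.11 rescaled, -0.058 to 0.054 with a resting sample left out (lowest without hv), -0.018 with separated names and -0.091 with node lymphomas. Mxd3 was at -0.071 rescaled, -0.36 without the Gm10800 libraries, -0.35 without wt (-0.35 to 0.44 with a resting sample left out), -0.48 with separated names and -0.51 with node lymphomas, and Mxd4 at -0.0077 rescaled, -0.025 without wt (-0.025 to 0.20 with a sample left out), -0.079 and -0.16 under the same settings. Against LPS, Mga was at -0.094 without the Gm10800 libraries, -0.039 to 0.12 with an LPS sample left out (lowest without cr) and -0.11 with node lymphomas. For hv against cr, Max was at 0.045 without a covariate and 0.021 with T39 as hv, and with median-of-ratios scaling Mga was at -0.024, Mlxip -0.084, Mxd1 -0.10 and Mxd4 -0.025. For co, with a co lymphoma left out, Max was at -0.31 to 0.018 (highest without T9), Mxd1 at -0.0011 to 0.46 (lowest without T30), Mxd3 at -0.24 to 0.17 and Mxd4 at -0.46 to 0.069 (both highest without T2), and Mxd3 was at 0.11 without a covariate. Myc there was at -0.010 with median-of-ratios scaling, -0.047 rescaled, -0.35 to 0.25 with a co lymphoma left out (-0.0060 without T34, -0.35 without T2) and -0.0080 with T39 as hv. For node against lung, Mga was at 0.024 and Mlx at 0.031 with median-of-ratios scaling, and Myc at -0.0036 with T39 as hv. Slopes on Myc were -0.039 for Max and -0.044 for Mnt without the 2 farthest lymphomas, and -0.067, -0.064 and -0.12 for Max, Mnt and Mxd4 with separated names.

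Shares of Myc transcripts, in percentage points with a sample left out, ranged from -5.54 to 3.14 (ENSMUST00000167731, LPS minus resting), -14.2 to -5.47 (the same, lymphoma minus LPS), -2.16 to 0.170 (ENSMUST00000159338, lymphoma minus LPS), -0.151 to 0.685 (ENSMUST00000188482, LPS minus resting), -11.35 to -1.37 (ENSMUST00000191178, lymphoma minus LPS, called without wt LPS at an adjusted p of 0.0234 in an exact permutation test) and -3.67 to 6.05 (full-length pair, LPS minus resting). The cause of these changes was not tested. The depth limits Mycn and, in lymphomas, Mycl, where most samples had fewer than 3 read pairs.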
